A study of Mus musculus with 9 samples.

Results

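The expression of 9 Janus kinase and STAT genes was followed through T cell activation and through activation under an inhibitor of NF-kB signalling: the kinases Jak1, Jak2 and Jak3 and the transcription factors Stat2, Stat3, Stat4, Stat5a, Stat5b and Stat6. They were taken by gene symbol from a deposited table of 49671 genes, where all 9 had a row, and all 9 were among the 18374 genes that passed the filter on low counts. The table holds total RNA sequencing counts of splenic CD3+ T cells, enriched on columns from female F1 mus x cast mice, in 3 groups of 3 libraries. One group (the inhibitor cultures) spent 48 hours on anti-CD3 bound to the plate at 1 µg/ml, with anti-CD28 in solution at 10 µg/ml and IMD-0354, a small-molecule inhibitor of the kinase IKK-beta, at 2.5 µM. A second group had the same culture and antibodies without IMD-0354 (the stimulated cultures), and the third went into TRIzol straight after enrichment (the unstimulated cells). The hybrid mice, bred from C57BL/6 mothers that carry an Xist deletion on one X chromosome and castaneus fathers, are the same in all groups, and reads of the castaneus alleles were aligned to a C57BL/6 assembly. No vehicle is named for the stimulated cultures and no group was cultured without antibodies, so the effects of culture and of stimulation cannot be told apart. The labels give no age of the mice.

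Janus kinases sit on the inner ends of cytokine receptor chains and phosphorylate each other, the receptor and the STAT proteins that dock on it. Phosphorylated STATs pair, enter the nucleus and bind DNA, and among their targets are SOCS genes and Cish, whose products switch the pathway off. In T cells JAK1 and JAK3 serve the receptors that share the common gamma chain, such as those for IL-2, IL-4 and IL-7, and JAK2 serves the receptors for IL-12 and IFN-gamma. STAT5A and STAT5B act downstream of IL-2 and IL-7, STAT6 downstream of IL-4, STAT4 downstream of IL-12, STAT3 downstream of IL-6 and IL-21, and STAT2 in the complex formed after type I interferon.

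The kinases and STATs did not move together. In stimulated cultures Jak2, Jak3, Stat2, Stat3, Stat5a and Stat5b rose against unstimulated cells, from 1.62-fold for Stat2 and Stat5b to 5.49-fold for Stat5a, while Jak1 fell 3.16-fold and Stat4 1.30-fold. In inhibitor cultures Jak2, Jak3, Stat2, Stat3 and Stat5b were lower than in stimulated cultures, by 1.30-fold to 1.94-fold, and Jak1 and Stat6 were higher, by 1.32-fold and 1.22-fold. Stat5a was 324 ± 18.2 CPM in inhibitor cultures and 348 ± 26.2 CPM in stimulated cultures (SD, n = 3 each), a difference that did not pass the test. CPM are read counts set against library size after TMM scaling, and a gene is said to rise, fall or be called only where the adjusted p of edgeR's quasi-likelihood test over all 18374 genes was under 0.05.

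Total counts ran from 34009988 to 56221174, and 20547 to 23223 genes had counts in 8 libraries, against 30106 in inhibitor library 1. Summed T cell markers (15 genes, among them Cd3e, Lck and Trac) ranged over 3037 to 3178 CPM in inhibitor cultures, 3030 to 3180 CPM in stimulated cultures and 2568 to 3995 CPM in unstimulated cells. Cd3e itself, a defining gene of T cells, averaged 389 ± 28.9 CPM in inhibitor cultures, 194 ± 4.12 CPM in stimulated cultures and 349 ± 86.6 CPM in unstimulated cells. Lck averaged 328 ± 12.9, 397 ± 15.8 and 434 ± 94.6 CPM in the same order of groups. Between inhibitor and stimulated cultures 3 of the 15 markers were called higher and 3 lower, beside 21.7% and 22.8% of all genes. In stimulated cultures against unstimulated cells 3 were called higher and 6 lower, beside 32.0% and 34.0%. Unstimulated cells also held the most RNA of other cell types. Their 12 myeloid markers summed to 1184 to 3082 CPM, against 50.5 to 81.4 in inhibitor and 54.2 to 59.8 in stimulated cultures. Their 10 B cell markers summed to 547 to 1472 CPM, against 150 to 151 in inhibitor and 67.5 to 76.2 in stimulated cultures. The 8 NK cell markers summed to 38.2 to 53.3 CPM in inhibitor cultures, 70.4 to 74.9 in stimulated cultures and 307 to 366 in unstimulated cells. The 9 erythroid and platelet markers summed to 4.90 to 13.1, 4.41 to 7.31 and 40.5 to 613 CPM in the same order of groups. The 8 proliferation markers, such as Mki67 and Top2a, summed to 641 to 976 CPM in inhibitor cultures, 2980 to 3051 in stimulated cultures and 326 to 976 in unstimulated cells. No marker was at 0 in any group, and the part of these shifts in the changes below was not tested. In such bulk libraries fewer cells of a type and less RNA per cell cannot be told apart.

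**Figure D1:**
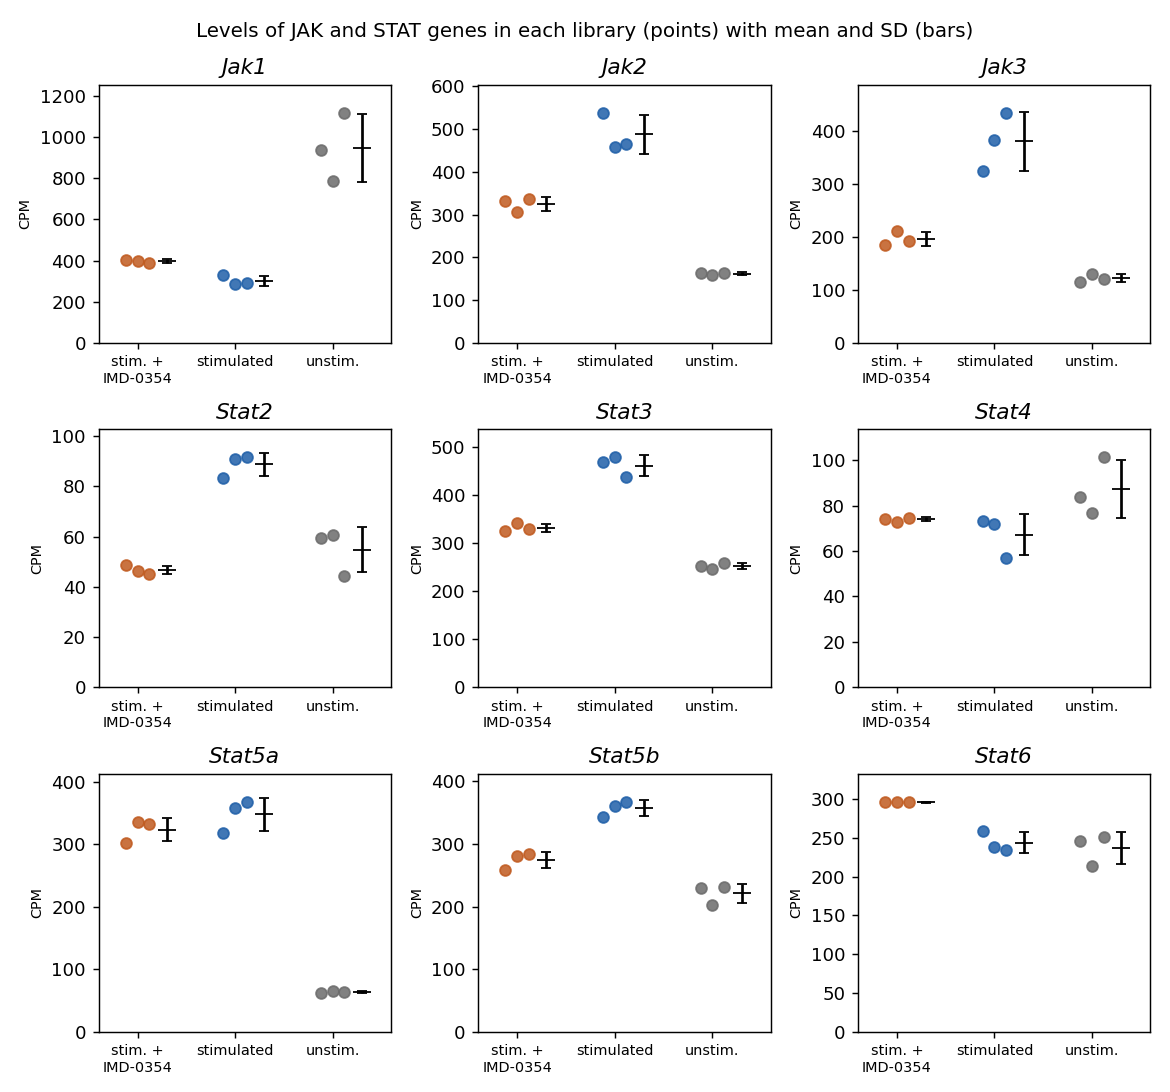
Level of each of the 9 genes in every library, in CPM on axes that start at 0, with the inhibitor cultures left, the stimulated cultures in the middle and the unstimulated cells right; points are libraries and the black bars give mean and SD (n = 3). Jak1 is highest in unstimulated cells, Stat5a is lowest there by a wide margin, and Jak2, Jak3, Stat2, Stat3 and Stat5b are highest in stimulated cultures with no overlap between their libraries and those of the other groups.

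Jak1 (ENSMUSG00000028530, minus strand of chromosome 4 at 101152367 to 101265282 on GRCm38/mm10) encodes the kinase that most cytokine receptors of T cells share. Its level was 405, 398 and 386 CPM in the 3 inhibitor libraries, 328, 285 and 289 CPM in the stimulated libraries and 937, 786 and 1120 CPM in the unstimulated libraries. Every unstimulated library lay far above every cultured one, and every inhibitor library lay above every stimulated one. Against unstimulated cells the log2 fold change was -1.66 ± 0.12 (approximate SE, edgeR adjusted p = 1.6e-06) in stimulated cultures and -1.26 ± 0.12 (edgeR adjusted p = 1.7e-05) in inhibitor cultures. Between inhibitor and stimulated cultures it was 0.40 ± 0.12 (edgeR adjusted p = 0.0218). That call was lost when stimulated library 2 or 3 or inhibitor library 1 or 2 was left out, with log2 fold changes of 0.35, 0.37, 0.38 and 0.39. The spread of Jak1 among unstimulated libraries went with that of the T cell markers, whose sum was 3337, 2568 and 3995 CPM in unstimulated libraries 1 to 3. As a percentage of that sum Jak1 was 12.8 ± 0.451 in inhibitor cultures, 9.63 ± 0.594 in stimulated cultures and 28.9 ± 1.47 in unstimulated cells. Relative to the mean, unstimulated libraries spread less in this percentage than in CPM for Jak1 and Stat4 only. The other members spread more, such as Stat3, at 7.88 ± 1.60% of the sum and 253 ± 5.63 CPM. Single markers in the sum changed between the groups in both directions, and the part of cell make-up in the Jak1 levels was not tested.

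The sequence upstream of Jak1 is shown because it is the only one of the 12 start-site windows of these 9 genes with a full cAMP response element. Each window holds the 250 bases before a RefSeq start on GRCm38.p6, on the strand of the gene, and all 9 genes had at least 1. The capitals mark the element, TGACGTCA, a palindrome that reads alike on both strands, which begins 101 bases before the start in chr4:101265224-101265473 (minus strand) and is found in 1.55% of all 32851 windows.
Jak1: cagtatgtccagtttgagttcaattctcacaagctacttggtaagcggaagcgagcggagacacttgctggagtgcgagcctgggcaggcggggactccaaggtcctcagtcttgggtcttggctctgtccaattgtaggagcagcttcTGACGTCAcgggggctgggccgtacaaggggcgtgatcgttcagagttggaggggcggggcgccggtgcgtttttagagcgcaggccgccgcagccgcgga
The window has a GC content of 61.2% and 19 CpG dinucleotides, against medians of 52.4% and 6 over all windows.

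Jak2 (ENSMUSG00000024789, plus strand of chromosome 19 at 29251828 to 29313080) serves the receptors for IL-12, IFN-gamma and the beta common chain cytokines. It stood at 332, 306 and 336 CPM in inhibitor libraries, 539, 458 and 466 CPM in stimulated libraries and 163, 158 and 163 CPM in unstimulated libraries. The 3 groups were fully apart, with stimulated cultures on top and inhibitor cultures between. The log2 fold change against unstimulated cells was 1.59 ± 0.08 in stimulated cultures (edgeR adjusted p = 1.8e-07) and 1.01 ± 0.08 in inhibitor cultures (edgeR adjusted p = 5.5e-06). Inhibitor cultures fell by 0.59 ± 0.08 on the log2 scale against stimulated cultures (edgeR adjusted p = 3.1e-04).

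Jak3 (ENSMUSG00000031805, plus strand of chromosome 8 at 71676296 to 71690575) encodes the kinase that binds the common gamma chain and works in a pair with JAK1. It had 185, 211 and 191 CPM in inhibitor libraries, 324, 384 and 435 CPM in stimulated libraries and 116, 130 and 121 CPM in unstimulated libraries, again with no overlap between any 2 groups. Its log2 fold change was 1.64 ± 0.11 in stimulated against unstimulated samples (edgeR adjusted p = 9.0e-07) and 0.68 ± 0.11 in inhibitor against unstimulated samples (edgeR adjusted p = 5.0e-04). Between inhibitor and stimulated cultures it was -0.96 ± 0.11 (edgeR adjusted p = 9.4e-05), the largest drop of the 9 genes in that comparison. The span of Jak3 overlaps that of Insl3 by 1362 bases on the same strand, and 7.21% of the 50-base windows of its exons occur in another gene, mostly Insl3, a gene that averaged at most 3.44 CPM in any group.

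Set against length, the make-up of the 3 kinases turned over. In CPM per kilobase of exon, Jak1 made up 35.2 ± 0.805% of the summed level of the 3 kinases in inhibitor cultures, 19.8 ± 1.33% in stimulated cultures and 70.2 ± 3.85% in unstimulated cells (SD, n = 3 each). Jak2 made up 41.4 ± 1.95%, 46.2 ± 3.65% and 17.4 ± 1.82% in the same order of groups, and Jak3 23.5 ± 1.72%, 34.0 ± 4.97% and 12.4 ± 2.12%. For each of the 3 kinases no library of one group overlapped another group, and the exact two-sided permutation test gave p = 0.1 in each comparison (0.1125 after Benjamini-Hochberg adjustment over 27 tests), the smallest p that 3 against 3 libraries allow. Within a library the Jak2 to Jak1 ratio per kilobase was 1.18 ± 0.0729 in inhibitor cultures, 2.33 ± 0.0289 in stimulated cultures and 0.249 ± 0.0395 in unstimulated cells. With the longest transcript as the length it was 0.799 in inhibitor cultures, so that which of the pair leads there depends on the length used, while it stayed above 1 in stimulated cultures (1.58) and below 1 in unstimulated cells (0.169).

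**Figure D2:**
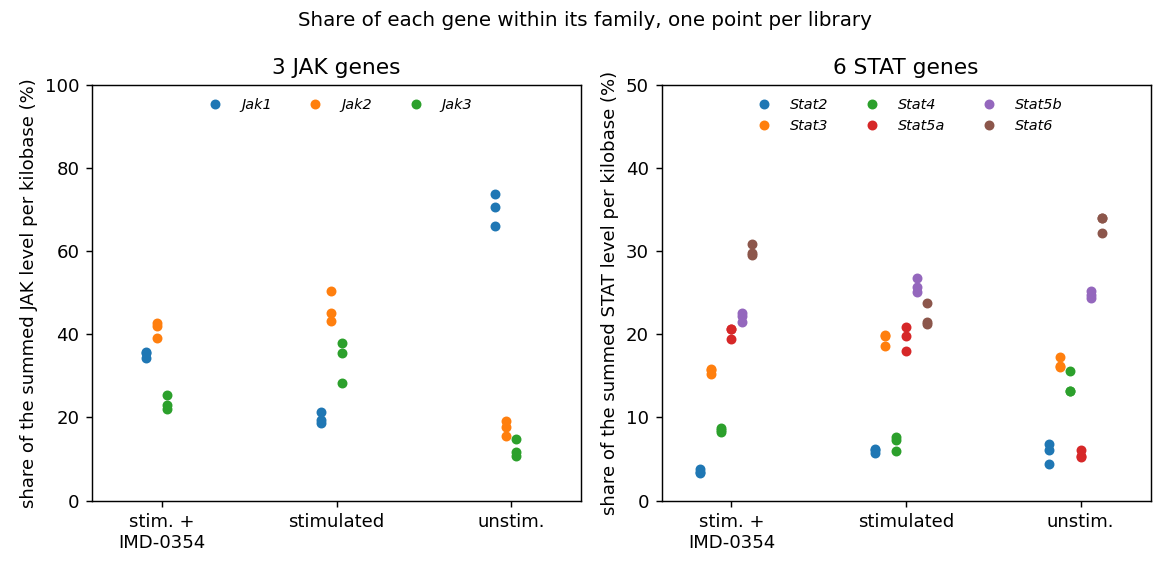
Share of each gene in the summed level per kilobase of its family, in percent, with 1 point per library, the 3 kinases in one panel and the 6 STAT genes in the other, and the inhibitor cultures left, then the stimulated cultures, then the unstimulated cells. Jak1 holds 70.2% of the kinase sum in unstimulated cells and 19.8% in stimulated cultures, and the Stat5a share is 5.55% in unstimulated cells and near 20% in both cultures.

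Stat5a and Stat5b, the pair downstream of IL-2 and IL-7, lie side by side on chromosome 11, and their levels followed different patterns. Stat5a (ENSMUSG00000004043, plus strand, 100859351 to 100885169) had 303, 335 and 333 CPM in inhibitor libraries, 319, 357 and 368 CPM in stimulated libraries and 62.4, 65.1 and 62.9 CPM in unstimulated libraries. All 6 cultured libraries lay far above the unstimulated ones, and the cultured groups overlapped each other. The log2 fold change against unstimulated cells was 2.46 ± 0.08 in stimulated cultures (edgeR adjusted p = 1.5e-08) and 2.35 ± 0.08 in inhibitor cultures (edgeR adjusted p = 3.7e-08), while between inhibitor and stimulated cultures it was -0.11 ± 0.08 (edgeR adjusted p = 0.304, not called). Stat5b (ENSMUSG00000020919, minus strand, 100780731 to 100850724) had 259, 280 and 284 CPM in inhibitor libraries, 344, 361 and 368 CPM in stimulated libraries and 230, 203 and 231 CPM in unstimulated libraries. Its groups did not overlap, yet its steps were small. They came to 0.69 ± 0.08 in stimulated against unstimulated samples (edgeR adjusted p = 2.5e-05), -0.38 ± 0.08 in inhibitor against stimulated samples (edgeR adjusted p = 0.0027) and 0.31 ± 0.08 in inhibitor against unstimulated samples (edgeR adjusted p = 0.0067). The last of these calls was lost with upper-quartile scaling, at 0.22, and with a minimum mean of 10 CPM, at 0.17.

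The 2 STAT5 genes stand head to head, 8626 bases apart with no gene between, and a window before 1 start of each is shown because they are alike in letters while the levels behaved differently. These 2 windows align best among the windows of the pair. Capitals mark the stretch that aligns, with 73 identical bases in 92 alignment columns (79.3%), in chr11:100860234-100860483 (plus strand) for Stat5a and chr11:100822571-100822820 (minus strand) for Stat5b.
Stat5a: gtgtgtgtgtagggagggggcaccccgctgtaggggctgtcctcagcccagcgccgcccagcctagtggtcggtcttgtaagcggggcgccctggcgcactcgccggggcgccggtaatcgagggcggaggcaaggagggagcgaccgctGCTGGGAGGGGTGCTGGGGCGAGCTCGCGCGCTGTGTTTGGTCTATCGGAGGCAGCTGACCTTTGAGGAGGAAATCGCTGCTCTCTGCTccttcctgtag
Stat5b: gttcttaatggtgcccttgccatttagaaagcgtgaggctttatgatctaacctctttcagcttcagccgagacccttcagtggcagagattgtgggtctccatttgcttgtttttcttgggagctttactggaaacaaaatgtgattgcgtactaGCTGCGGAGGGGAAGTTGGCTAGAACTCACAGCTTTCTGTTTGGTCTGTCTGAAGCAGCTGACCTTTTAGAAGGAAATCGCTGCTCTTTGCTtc
Neither is the promoter at the facing end of its gene: the Stat5b window belongs to a start inside the gene, while the window of its outer start, chr11:100850582-100850831, has a GC content of 82.0% and 40 CpG dinucleotides. The Stat5a window likewise belongs to the inner of 2 starts, the other having its window at chr11:100859406-100859655. The exons are alike too. Of the 50-base windows along the exons, 8.21% of those of Stat5a occur letter for letter in Stat5b and 11% of those of Stat5b in Stat5a, and reads that lie wholly in them could have been split between the 2 genes or dropped by the authors' counting.

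Per kilobase of exon, the Stat5a to Stat5b ratio was 0.908, 0.929 and 0.913 in inhibitor libraries, 0.720, 0.769 and 0.778 in stimulated libraries and 0.211, 0.249 and 0.212 in unstimulated libraries. On this scale the 3 groups were apart, with the pair nearest to even in inhibitor cultures. Using the longest transcript in place of all exons, the mean ratio became 1.55 in inhibitor cultures, 1.28 in stimulated cultures and 0.380 in unstimulated cells. It was then nearest to even in stimulated cultures. In culture the order of the pair thus turns with the length used, whereas the order of the groups does not.

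Stat3 (ENSMUSG00000004040, minus strand of chromosome 11 at 100885098 to 100939540), the factor downstream of IL-6 and IL-21, had 326, 341 and 329 CPM in inhibitor libraries, 468, 480 and 438 CPM in stimulated libraries and 253, 247 and 258 CPM in unstimulated libraries. The groups were apart, in the same order as for Jak2, Jak3 and Stat5b. Log2 fold changes were 0.87 ± 0.07 for stimulated against unstimulated samples (edgeR adjusted p = 2.2e-06), -0.48 ± 0.07 for inhibitor against stimulated samples (edgeR adjusted p = 3.5e-04) and 0.40 ± 0.07 for inhibitor against unstimulated samples (edgeR adjusted p = 7.4e-04). The ends of Stat3 and Stat5a overlap by 72 bases on opposite strands, and since the strand setting of the counting is not given in the sources used here, reads there cannot be assigned with certainty.

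Stat2 (ENSMUSG00000040033, plus strand of chromosome 10 at 128270559 to 128292849) joins IRF9 in the complex that drives interferon-stimulated genes. Its level was 48.6, 46.4 and 45.3 CPM in inhibitor libraries, 83.4, 91.0 and 91.6 CPM in stimulated libraries and 59.4, 60.7 and 44.4 CPM in unstimulated libraries. Stimulated libraries were above all others, and the inhibitor libraries overlapped the unstimulated ones through unstimulated library 3. The log2 fold change was 0.69 ± 0.12 in stimulated against unstimulated samples (edgeR adjusted p = 4.6e-04) and -0.92 ± 0.12 in inhibitor against stimulated samples (edgeR adjusted p = 1.8e-04). Against unstimulated cells the inhibitor cultures differed by -0.23 ± 0.12 (edgeR adjusted p = 0.127, not called). This last difference was called lower without unstimulated library 3 (-0.36), with upper-quartile scaling (-0.31) and with a minimum mean of 10 CPM (-0.37).

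The window before the start of Stat2 is shown because it carries an interferon-stimulated response element, the kind of site bound by the complex that STAT2 belongs to. The element was searched on both strands as GAAA, any 2 bases and GAAA again, and matched on the opposite strand, beginning 222 bases before the start in chr10:128270248-128270497 (plus strand), where the capitals mark it.
Stat2: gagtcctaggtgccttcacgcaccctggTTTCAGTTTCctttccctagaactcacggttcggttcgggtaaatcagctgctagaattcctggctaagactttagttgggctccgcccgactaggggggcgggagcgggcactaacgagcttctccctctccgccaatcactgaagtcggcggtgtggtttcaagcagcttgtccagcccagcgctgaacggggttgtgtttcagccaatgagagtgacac
Of all 32851 windows, 2.98% hold such a match, and among the 12 windows of these genes 1 window of Stat4 had one as well. The STAT site TTCNNNGAA (GAS), present in 7.02% of all windows, and the NF-kB site, searched as GGG, any 2 bases and TTTCC, present in 1.41%, were in 0 of the 12, each searched on both strands. No 2 matches overlapped, as each lay in a window of its own. Nothing about the binding of a factor follows from letters alone.

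Stat4 (ENSMUSG00000062939, plus strand of chromosome 1 at 51987148 to 52107189), which IL-12 activates, changed little in any comparison. It had 74.1, 73.0 and 74.7 CPM in inhibitor libraries, 73.0, 71.7 and 56.8 CPM in stimulated libraries and 83.6, 76.8 and 101 CPM in unstimulated libraries. Unstimulated libraries were the highest, and the cultured groups overlapped. Stimulated cultures fell by 0.38 ± 0.12 on the log2 scale against unstimulated cells (edgeR adjusted p = 0.0203), and the call was lost without stimulated library 3 (-0.26) or unstimulated library 3 (-0.25). Inhibitor cultures differed from stimulated cultures by 0.14 ± 0.12 (edgeR adjusted p = 0.390) and from unstimulated cells by -0.24 ± 0.12 (edgeR adjusted p = 0.130), neither of them called. The second of these was called with a minimum mean of 10 CPM, at -0.38. Of the 50-base windows of the Stat4 exons, 21.7% also occur in Gm28177, a transcript on the same strand whose span overlaps that of Stat4 by 29929 bases and which averaged at most 0.319 CPM in any group. Reads in those windows could have been dropped or split, so the level of Stat4 per kilobase is uncertain.

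Stat6 (ENSMUSG00000002147, plus strand of chromosome 10 at 127642986 to 127660957), the factor of the IL-4 receptor, had 296, 296 and 297 CPM in inhibitor libraries, 259, 238 and 234 CPM in stimulated libraries and 246, 213 and 252 CPM in unstimulated libraries. Inhibitor libraries were the highest, and the other two groups overlapped. Stimulated and unstimulated samples differed by 0.04 ± 0.08 on the log2 scale (edgeR adjusted p = 0.666, not called), a value whose sign changed with the scaling. Inhibitor cultures were higher than stimulated cultures by 0.28 ± 0.08 (edgeR adjusted p = 0.0173) and higher than unstimulated cells by 0.32 ± 0.08 (edgeR adjusted p = 0.0070). The first of these calls was lost without stimulated library 2 or 3 or inhibitor library 2 (0.25, 0.25 and 0.28) and with no filter on low counts (0.25), the second with upper-quartile scaling (0.23) and with a minimum mean of 10 CPM (0.18).

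**Figure D3:**
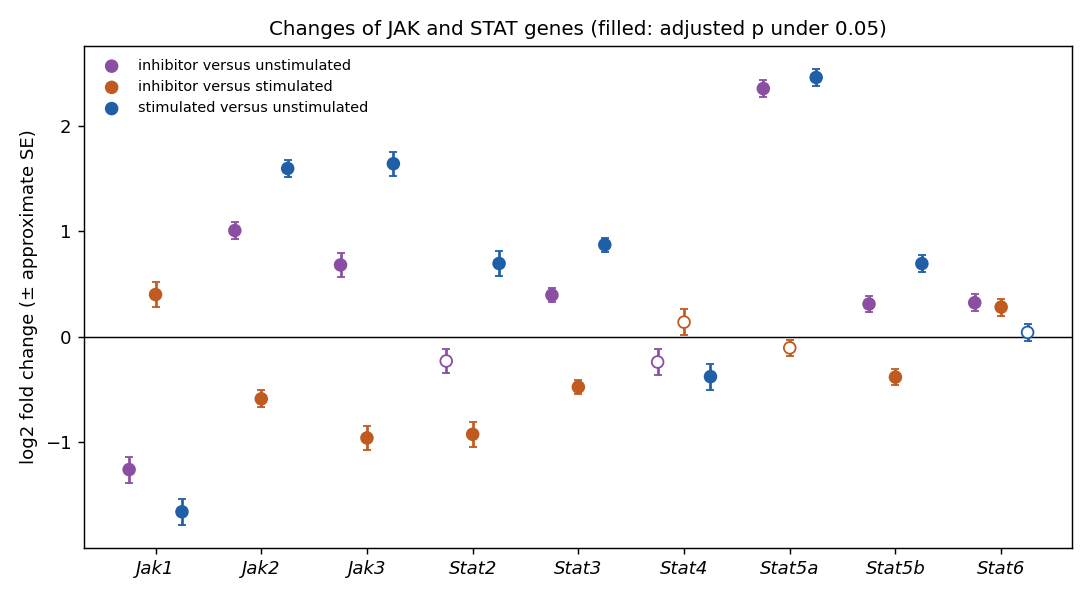
Log2 fold change of the 9 genes in the 3 comparisons, with bars for the approximate SE; filled points have an edgeR adjusted p under 0.05 and open points do not. Stat5a stands at 2.46 for stimulated against unstimulated samples and at -0.11 for inhibitor against stimulated samples, and Jak1 points down against unstimulated cells and up between the 2 cultures.

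Counted over the 9 genes, 6 were called higher and 2 lower in stimulated cultures against unstimulated cells, in a comparison where 66.0% of all genes tested were called (32.0% higher, 34.0% lower). Of the 9 genes, 2 were called higher and 5 lower in inhibitor cultures against stimulated cultures, where 44.5% of all genes were called (21.7% higher, 22.8% lower). Inhibitor cultures against unstimulated cells gave 6 higher and 1 lower of 9, with 52.4% of all genes called (26.3% higher, 26.1% lower). The median log2 fold change of the 9 genes was 0.69, -0.38 and 0.32 in these 3 comparisons, beside -0.05, 0.03 and -0.00 over all genes. Calls were common in the whole table, and the 9 genes were not tested as a set. The comparisons share samples pairwise, so their values are given side by side and not as independent results.

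Within the STAT family, Stat6 made up the largest mean share of the summed level per kilobase in inhibitor cultures (30.0 ± 0.690%) and in unstimulated cells (33.4 ± 1.00%), and Stat5b in stimulated cultures (25.9 ± 0.899%). In both cultures the leader depends on the length used. With the longest transcript Stat5a came first among the STAT genes, at 81.8 ± 4.59 CPM per kilobase against 78.4 ± 0.15 for Stat6 in inhibitor cultures, and at 88.0 ± 6.62 against 76.5 ± 3.62 for Stat3 and 68.6 ± 2.37 for Stat5b in stimulated cultures, while Stat6 still led in unstimulated cells, at 62.7 ± 5.48. The Stat5a share was 20.2 ± 0.672% in inhibitor cultures, 19.6 ± 1.44% in stimulated cultures and 5.55 ± 0.459% in unstimulated cells. The Stat4 share was 8.53 ± 0.247% in inhibitor cultures, 6.95 ± 0.895% in stimulated cultures and 14.0 ± 1.37% in unstimulated cells. Stat2 was the smallest in both cultures, at 3.53 ± 0.209% in inhibitor and 6.00 ± 0.289% in stimulated samples, beside 5.79 ± 1.21% in unstimulated cells. The exact permutation p was 0.9 for Stat2 and 0.2 for Stat5b in stimulated against unstimulated samples and 0.7 for Stat5a in inhibitor against stimulated samples. It was at its minimum of 0.1 for the other STAT shares in each comparison.

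Ranked per kilobase over both families, the inhibitor cultures had Stat6 first at 67.3 ± 0.128 CPM per kilobase, followed by Jak2 at 64.5 ± 3.21 and Jak1 at 54.8 ± 1.34. Stat5b and Stat5a, at 49.5 ± 2.39 and 45.4 ± 2.55, overlapped, as did Jak3 and Stat3, at 36.6 ± 2.55 and 34.9 ± 0.871, and Stat4 (19.1 ± 0.232) and Stat2 (7.89 ± 0.286) came last. In stimulated cultures Jak2 led at 96.9 ± 8.87 CPM per kilobase, ahead of Jak3 (71.1 ± 10.4), Stat5b (64.5 ± 2.23), Stat6 (55.4 ± 3.03), Stat5a (48.8 ± 3.67), Stat3 (48.5 ± 2.30), Jak1 (41.6 ± 3.27), Stat4 (17.3 ± 2.32) and Stat2 (15 ± 0.772). Overlapping neighbours there were Jak3 with Stat5b, Stat5a with Stat3, and Stat4 with Stat2. In unstimulated cells Jak1 stood alone at 131 ± 23.1 CPM per kilobase, ahead of Stat6 (53.8 ± 4.70), Stat5b (39.9 ± 2.80), Jak2 (32.1 ± 0.639), Stat3 (26.5 ± 0.591), Jak3 (22.8 ± 1.40), Stat4 (22.5 ± 3.28), Stat2 (9.25 ± 1.53) and Stat5a (8.90 ± 0.200). Only Jak3 with Stat4 and Stat2 with Stat5a overlapped there among neighbours. On this scale Stat5a ranked 5 in both cultures and 9 in unstimulated cells, and Jak1 ranked 3 in inhibitor cultures, 7 in stimulated cultures and 1 in unstimulated cells. Much of the order in culture turns with the length used. With the longest transcript Stat5a had the highest mean in inhibitor cultures, just above Jak1 (80.8 ± 1.97 CPM per kilobase) and Stat6, and in stimulated cultures it came after Jak2 (96.9 ± 8.87) and Jak3 (94.0 ± 13.7).

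Among the members, the most similar pair over the 9 libraries was Stat3 and Stat5b, whose log2 CPM, centred on each gene's mean, differed by a root mean square of 0.0979. Jak2 and Jak3 followed at 0.246, whereas Stat5a and Stat5b were 0.905 apart and Jak1 and Stat5a, the least similar pair, 1.83. Among 8629 other protein-coding genes whose mean log2 CPM was 3 or more, the nearest to Jak1 was Ppm1h (0.0640), then Il16 and Tnik. Nearest to Jak2 were Psmd8 (0.0742), Ube2m and Utp4, and nearest to Jak3 were Dhcr7 (0.103), Aprt and Abhd14a. For Stat2 they were Cep192 (0.0954), Fam126a and Cep44, for Stat3 Ino80e (0.0477), Ntan1 and Cox10, and for Stat4 Zfp148 (0.0813), Acap2 and Cul3. Stat5a ran closest to Plagl2 (0.0998), Smyd5 and Cul7, Stat5b to Chd1l (0.0473), Pdxk and Actn4, and Stat6 to Ndfip2 (0.0435), Slf2 and Ankrd40. Likeness here is of levels over 3 groups of libraries and nothing more.

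Upstream of the kinases, 22 of 23 listed receptor chains were tested. The counts of this list and of those below stand beside the shares of all tested genes that were called. These were 32.0% higher and 34.0% lower in stimulated cultures against unstimulated cells and 21.7% and 22.8% in inhibitor against stimulated cultures. In inhibitor cultures against unstimulated cells they were 26.3% and 26.1%. No list was tested as a set. Of the chains, 7 were called higher and 14 lower in stimulated cultures against unstimulated cells (median log2 fold change -0.67). Il2ra, the alpha chain that gives the IL-2 receptor its high affinity, averaged 1518 ± 62.9 CPM in stimulated cultures and 22.7 ± 2.23 CPM in unstimulated cells (log2 fold change 6.06 ± 0.11), and Il12rb2, the signalling chain of the IL-12 receptor, 557 ± 39.7 CPM and 22.3 ± 1.60 CPM (4.64 ± 0.11). Lower were Il6ra, the IL-6 binding chain, at 33.8 ± 2.12 CPM in stimulated cultures and 271 ± 34.4 CPM in unstimulated cells, and Csf2rb, the beta common chain, at 2.38 ± 1.04 CPM and 62.3 ± 20.2 CPM. The myeloid markers given above were lower in the same comparison, all 12 of them called. Between inhibitor and stimulated cultures 7 chains were called higher and 9 lower (median -0.21). Il12rb2 averaged 126 ± 12.9 CPM in inhibitor cultures and 557 ± 39.7 CPM in stimulated cultures, and Il10ra, an IL-10 receptor chain, 31.1 ± 3.35 CPM and 88.8 ± 5.97 CPM. Il6st, the signal-transducing chain gp130, averaged 202 ± 14.6 CPM in inhibitor cultures, 67.4 ± 1.98 CPM in stimulated cultures and 383 ± 60.2 CPM in unstimulated cells. Il15ra averaged 51.3 ± 4.20 CPM in inhibitor cultures and 26.0 ± 1.98 CPM in stimulated cultures. Against unstimulated cells the inhibitor cultures had 5 chains called higher and 13 lower (median -0.58), with Il2ra at 564 ± 31.4 CPM and Il12rb1 at 63.0 ± 6.58 CPM, against 22.7 ± 2.23 and 5.74 ± 0.381 CPM in unstimulated cells. Il7r, the IL-7 receptor chain of resting T cells, averaged 38.6 ± 3.57 CPM in inhibitor cultures and 380 ± 88.0 CPM in unstimulated cells.

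Of 20 cytokine genes that signal through these kinases, 19 were tested, and 15 were called higher and 3 lower in stimulated cultures against unstimulated cells (median 4.44). A minimum mean of 10 CPM, which leaves fewer of the list to test, gave 8 and 0. Lif averaged 338 ± 14.7 CPM in stimulated cultures and 1.05 ± 0.131 CPM in unstimulated cells, and Ifng, the type 1 helper cytokine, 260 ± 33.0 CPM and 12 ± 2.27 CPM. Inhibitor against stimulated cultures gave 3 higher and 10 lower (median -1.91), or 1 and 6 with that minimum. Il24 averaged 0.469 ± 0.237 CPM in inhibitor cultures and 315 ± 59.7 CPM in stimulated cultures, and Il13, a type 2 cytokine, 2.89 ± 1.89 CPM and 54.3 ± 5.35 CPM. Il2 went the other way, at 49.1 ± 10.4 CPM in inhibitor cultures and 2.89 ± 1.26 CPM in stimulated cultures (4.09 ± 0.34, edgeR adjusted p = 1.3e-05). In inhibitor cultures against unstimulated cells 10 were called higher and 6 lower (median 2.66), or 6 and 1 with that minimum. The 6 lower also became 3 without inhibitor library 3 or unstimulated library 1 or 2, with the replicate block or with the libraries of this comparison only, and 2 in limma voom. Lif averaged 82.0 ± 5.52 CPM and Ifng 125 ± 32.2 CPM in inhibitor cultures, against the unstimulated means just given. Il3, Il9 and Il24 had 0 counts in unstimulated cells, where 3 counts over the group would be 0.0226 CPM, and the medians are the same with these genes at that bound.

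All 18 feedback inhibitors listed were tested. Stimulated cultures had 10 called higher and 5 lower against unstimulated cells (median 0.33), inhibitor cultures 5 higher and 6 lower against stimulated cultures (median -0.10) and 10 higher and 6 lower against unstimulated cells (median 0.29). Cish, a STAT5-induced inhibitor, averaged 328 ± 17.5 CPM in inhibitor cultures, 525 ± 52.5 CPM in stimulated cultures and 30.6 ± 6.17 CPM in unstimulated cells, and it rose in both cultures against unstimulated cells. Socs2, another gene of this family, averaged 23.3 ± 1.94, 27.5 ± 3.32 and 4.49 ± 0.890 CPM in that order. Socs3, which blocks gp130 signalling, averaged 17.4 ± 1.37 CPM in inhibitor cultures, 193 ± 19.6 CPM in stimulated cultures and 105 ± 9.68 CPM in unstimulated cells, and the drop between inhibitor and stimulated cultures was 3.47 ± 0.11 on the log2 scale (-3.47, edgeR adjusted p = 1.4e-07). Socs1 averaged 44.8 ± 14.2 CPM in inhibitor and 141 ± 18.8 CPM in stimulated cultures, whereas Socs5 averaged 58.0 ± 4.70 CPM and 18.2 ± 1.78 CPM. Pias1 and Pias3, which encode inhibitors of STAT DNA binding, were lower in stimulated cultures than in unstimulated cells, at 47.7 ± 4.87 against 117 ± 10.4 CPM and at 11.3 ± 0.631 against 20.5 ± 2.23 CPM. Pias3 was higher in inhibitor cultures (19.0 ± 1.91 CPM) than in stimulated cultures.

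**Figure D4:**
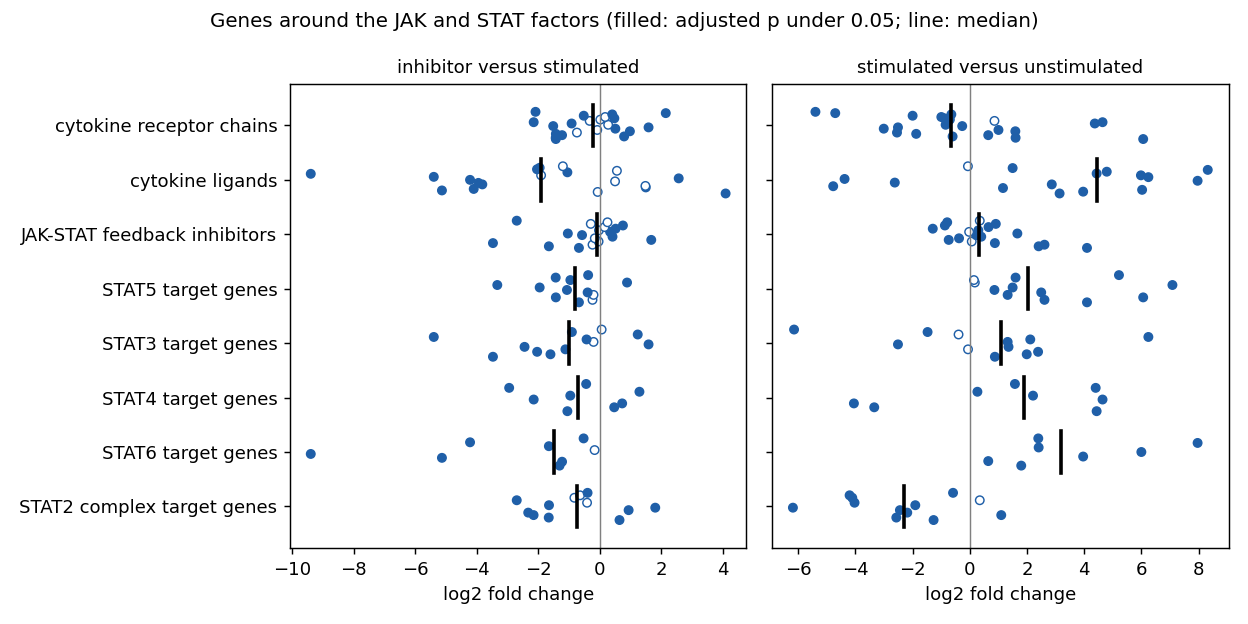
Log2 fold changes of the genes of 8 lists around the JAK and STAT genes, with inhibitor against stimulated cultures in one panel and stimulated against unstimulated samples in the other; each point is a gene, filled where the edgeR adjusted p is under 0.05, the line is the median of the tested genes, and genes at 0 in a group are not drawn. The median of the STAT6 target list is 3.19 for stimulated against unstimulated samples and -1.48 for inhibitor against stimulated samples, and that of the STAT2 complex list is below 0 in both. The lists were chosen with earlier results of these data known.

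Downstream, the target lists were compared with the STAT genes they belong to, as counts only. The lists were chosen with earlier results of these data known, so their counts and medians describe the listed genes only. The shares of all genes called are those given with the receptor chains. Some genes stand in more than 1 list, for example Il2ra, Il12rb2, Socs3 and Il24. Of 12 STAT5 target genes 10 were called higher and 0 lower in stimulated cultures against unstimulated cells (median 2.05), 1 higher and 9 lower in inhibitor against stimulated cultures (median -0.82), and 8 higher and 2 lower in inhibitor cultures against unstimulated cells (median 1.61). The count of 0 by edgeR was also 0 at an unadjusted p under 0.05, in DESeq2 and in limma voom. The last 2 became 1 without inhibitor library 1 or 3 or unstimulated library 1, with the replicate block, in limma voom and with the libraries of this comparison only. Gzmb, the gene of the cytotoxic protease granzyme B, averaged 294 ± 18.3 CPM in inhibitor cultures, 2957 ± 54.0 CPM in stimulated cultures and 21.8 ± 1.92 CPM in unstimulated cells. Osm averaged 12.8 ± 2.35 CPM in inhibitor and 49.9 ± 3.44 CPM in stimulated cultures. Ccnd2, the gene of cyclin D2, was the 1 called higher, with 1334 ± 7.46 CPM in inhibitor and 722 ± 84.5 CPM in stimulated cultures. Lta was higher and Ccnd3 lower in inhibitor cultures than in unstimulated cells, at 203 ± 8.53 against 7.09 ± 0.625 CPM and at 173 ± 15.7 against 303 ± 9.6 CPM. The Stat5a gene itself was not called between the 2 cultures, while Stat5b was lower in inhibitor cultures. The difference between these changes was not tested. The ratio of the pair per kilobase, which was described only, did not overlap between the 2 cultures.

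Of 12 STAT3 target genes 7 were called higher and 3 lower in stimulated cultures against unstimulated cells (median 1.10), with Batf, a partner of the AP-1 factors, at 57.5 ± 0.139 against 11 ± 0.449 CPM and Myc at 382 ± 37.2 against 88.1 ± 1.20 CPM. Fos, an immediate early gene, was lower at 10.4 ± 0.120 against 733 ± 298 CPM. In inhibitor against stimulated cultures 2 were called higher and 8 lower (median -1.01; 1 higher with the 10 CPM minimum), with Fosl2 at 73.2 ± 3.46 against 399 ± 37.3 CPM. Inhibitor cultures against unstimulated cells gave 3 higher and 6 lower (median -0.29), with Myc at 283 ± 9.09 CPM in inhibitor cultures and Pim1, a kinase gene, at 459 ± 31.8 against 211 ± 14.2 CPM. With no filter on low counts the 3 became 5.

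Of 8 STAT4 target genes 6 were called higher and 2 lower in stimulated cultures against unstimulated cells (median 1.90), 3 higher and 5 lower in inhibitor against stimulated cultures (median -0.70), and 6 higher and 2 lower in inhibitor cultures against unstimulated cells (median 1.36). The lower pair against unstimulated cells was Il18r1 and Il18rap, the chains of the IL-18 receptor. Il18rap averaged 7.12 ± 1.02 CPM in inhibitor cultures, 4.30 ± 0.739 CPM in stimulated cultures and 71.3 ± 11.8 CPM in unstimulated cells, and Il18r1 averaged 11.9 ± 1.16, 8.56 ± 0.687 and 86.6 ± 8.03 CPM in the same order. The 8 NK cell markers were also all called lower in both of these comparisons. Between inhibitor and stimulated cultures 1 NK cell marker was called higher and 7 lower, while Il18r1 was called higher. The part of NK cells in the levels of these genes was not tested. Tbx21, the gene of T-bet, averaged 134 ± 5.87 CPM in inhibitor and 55.0 ± 2.79 CPM in stimulated cultures. Gadd45g averaged 8.98 ± 2.81 CPM in inhibitor and 69.4 ± 14.6 CPM in stimulated cultures.

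Of 8 STAT6 target genes 8 were called higher in stimulated cultures against unstimulated cells (median 3.19), 0 were called higher and 7 lower in inhibitor against stimulated cultures (median -1.48), and 6 were called higher and 2 lower in inhibitor cultures against unstimulated cells (median 1.31). The 0 by edgeR was also 0 at an unadjusted p under 0.05, in DESeq2 and in limma voom. The 2 called lower against unstimulated cells became 1 when any inhibitor library or unstimulated library 1 or 2 was left out, with the replicate block, in limma voom, with the libraries of this comparison only, with counts divided by 2 and with the 10 CPM minimum. Ccr8, a chemokine receptor gene, averaged 61.3 ± 9.28 CPM in inhibitor cultures, 68.9 ± 1.33 CPM in stimulated cultures and 1.07 ± 0.198 CPM in unstimulated cells. Gfi1 averaged 94.5 ± 9.38 CPM in inhibitor cultures and 25.9 ± 1.97 CPM in unstimulated cells. Il4ra, the receptor chain upstream of STAT6, averaged 164 ± 7.47 CPM in inhibitor cultures, 384 ± 9.56 CPM in stimulated cultures and 246 ± 24.9 CPM in unstimulated cells. Stat6 itself was slightly higher in inhibitor than in stimulated cultures, as given above.

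Of 12 targets of the STAT2 complex 1 was called higher and 10 lower in stimulated cultures against unstimulated cells (median -2.31), though Stat2 itself rose. The 1 became 0 without stimulated library 1 or unstimulated library 3, and a minimum mean of 10 CPM, which leaves fewer of the list to test, gave 0 and 4. In inhibitor against stimulated cultures 3 were called higher and 6 lower (median -0.73), and the 3 became 1 without stimulated library 2 or 3 or inhibitor library 1 and with the 10 CPM minimum. In inhibitor cultures against unstimulated cells 0 were called higher by edgeR and 12 lower (median -3.89), and 0 were higher at an unadjusted p under 0.05, in DESeq2 or in limma voom. The 12 became 5 with the 10 CPM minimum. Irf7, the interferon-induced regulator of interferon genes, averaged 2.18 ± 0.482 CPM in inhibitor cultures, 6.87 ± 0.863 CPM in stimulated cultures and 40.7 ± 6.79 CPM in unstimulated cells. Mx1, an antiviral gene, averaged 5.24 ± 1.26 CPM in stimulated cultures and 23.8 ± 4.17 CPM in unstimulated cells. Irf9, the partner of STAT2, averaged 46.0 ± 3.54 CPM in inhibitor cultures, 29.5 ± 1.16 CPM in stimulated cultures and 70.9 ± 9.34 CPM in unstimulated cells. Zbp1, a sensor of nucleic acids, averaged 23.5 ± 4.0, 31.0 ± 0.157 and 46.4 ± 2.75 CPM in the same order. The myeloid and B cell markers were lower in both cultures as well, and their part in the levels of these genes was not tested.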

How the data were processed

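Gene-level read counts were deposited by the authors in 1 table without normalization. Alignment to mm10 used STAR 2.7.1a and counting used featureCounts, per the submitters' processing notes. Sources used here do not give the annotation, the strand setting or how mates were counted. Between 70.6% and 78.5% of the values from 1 to 10 were even in each library, so that intervals and floors from counts, which cover counting error only, are too narrow where both mates were counted. All 9 columns were mapped by their names, and 0 were left unused. Of the identifiers, 49412 were in GENCODE M21, which gave names, positions and lengths. Promoter windows came from RefSeq (GRCm38.p6).

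Genes were filtered with filterByExpr, scaled by TMM (factors 0.925 to 1.122) and tested in 1 edgeR 4.0.16 quasi-likelihood fit (R 4.3.3) with group as the only term, two-sided, with Benjamini-Hochberg adjustment over 18374 genes. The approximate SE is the size of the log2 fold change over the square root of F. The procedure was run on simulated data in which far fewer genes changed than were called here (44.5% to 66.0%). That run does not show its error rate in data such as these. Alternatives were DESeq2 1.42.0, limma voom 3.58.1, other scalings and filters, the libraries of 1 comparison only, counts divided by 2, a replicate block and each library left out. Replicates differed by more than sampling noise (chi-square over its degrees of freedom 32.7 to 132). The sample titles call the libraries biological replicates, but whether each came from its own animal is not in the labels. A p-value thus reflects the spread of these libraries, which may not be that between animals. The members, the 8 pathway and 6 marker lists and the tests were chosen with earlier results of these data known. Genes named from a list are, in each comparison, among the 2 called with the largest change in each direction. They had a mean log2 CPM of 3 or more and no overlap between groups. Not every gene picked by this rule is given for every comparison. Il4ra and Irf9 are also given in the other groups because they act beside a member. Genes nearest to a member are the 3 with the smallest root mean square difference.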

Additional observations from a re-analysis of the deposited data

How the results depend on the processing

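Of 405 member fold changes under the alternatives, 381 kept their direction and side of the threshold, 14 lost and 4 gained the call and 6 changed sign, none of these 6 a called value. Members called higher in inhibitor against stimulated cultures numbered 1 with no filter on low counts and 0 to 2 with a library left out. Members called lower in inhibitor cultures against unstimulated cells numbered 3 with a minimum mean of 10 CPM, 2 with upper-quartile scaling and 1 to 2 with a library left out, and in stimulated cultures against unstimulated cells 1 to 2 with a library left out. With the 10 CPM minimum, which tests fewer genes, 2947 genes were called higher and 2920 lower in inhibitor cultures against unstimulated cells (main 4826 and 4800), and 3463 higher and 3488 lower in stimulated cultures (main 5880 and 6246). Stat6 in stimulated against unstimulated samples was -0.0037 with RLE factors, -0.18 with upper-quartile scaling, -0.14 with the 10 CPM minimum, -0.0038 in DESeq2 and between -0.029 and 0.093 with a library left out, below 0 only without unstimulated library 2. Stat5a in inhibitor against stimulated cultures was 0.025 with upper-quartile scaling. Upper-quartile scaling moved the median of all genes by -0.22 in stimulated against unstimulated samples (39.7% of calls higher, against 48.5%) and by 0.13 in inhibitor against stimulated cultures (58.6%, against 48.8%), and member changes under it are to be read relative to that shift. With no low-count filter the median moved by 0.27 and 0.29 in the 2 comparisons of inhibitor cultures. The Stat2 share difference between stimulated and unstimulated samples was -0.204 points with the longest transcript, -0.359 with no division by length and -0.463 to 0.718 with a library left out (below 0 without unstimulated library 3), that of Stat5b -0.559 and -1.32 with the 2 length settings, and that of Stat5a between inhibitor and stimulated cultures -0.0764 to 1.35 with a library left out (below 0 without stimulated library 1). In no other case did a share difference change direction. The cause of these changes was not tested.

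The replicate numbers are not said to pair samples. Deviations of same-numbered libraries correlated at 0.144, 0.107 and 0.0782 between inhibitor and stimulated cultures, where each library correlated best with its own number, and between -0.194 and 0.0047 in the other comparisons. With the replicate block, 6 members were called higher and 2 lower in stimulated against unstimulated samples, 2 and 5 in inhibitor against stimulated cultures and 6 and 1 in inhibitor against unstimulated samples, as without it. Over all genes the block gave 5705 higher and 6002 lower, 3642 and 3940, and 4550 and 4575 in these comparisons. Among the list counts it moved by over 1.5 times only those called lower in inhibitor against unstimulated samples, to 3 for the cytokine ligands, 1 for the STAT5 and 1 for the STAT6 targets. Of 720 list counts under all alternatives, 681 stayed within 1.5 times and 39 moved.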
